A study of Mus musculus with 4 samples.

Results

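Expression of 9 mouse carbonic anhydrase genes, Car2, Car3, Car4, Car7, Car8, Car9, Car12, Car13 and Car14, was followed across 4 one-colour expression arrays. Every non-control probe whose name on the array was one of these 9 symbols was taken, which gave 12 probes of 41155 with a value on every array, and 9 gene names of 27953. Car3, Car8 and Car12 had 2 probes each, and the other 6 genes had 1. The family was selected on the measured Car2 levels, which differ strongly between the neural progenitor cell lines, so differences between the lines are given below as a description, with no test.

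On 3 of the arrays was total RNA of neural progenitor cell (NPC) lines, which are cultures of self-renewing neural precursors grown here from mouse embryonic stem (ES) cells. NS21 came from ES line 21 and has the strain label 129/Ola, NS195R came from ES line 195R and is labelled 129/Sv, and NSEB5-2C came from ES line EB5 and is labelled 129/Ola. The other array held Mixture, with the strain label Swiss Webster. In it, RNA of day 11 embryos was pooled at equal mass with that of adult liver, lung, heart, kidney, spleen and thymus. The study used Mixture as its comparison for picking genes with higher expression in NPC lines. Mixture names no adult brain, and strain, age, tissue and culture differ together between it and the lines, so they cannot be told apart. The source label of Mixture names an NPC line given doxycycline, against its title and its cell type label. In that library all 4 liver, 4 lung, 5 kidney and 7 heart and muscle markers were well above background. Each line and the pool were hybridised once. What separates one NPC array from another is therefore the line and the hybridisation at once, and the p-values below are measured against that joint spread.

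Carbonic anhydrases are zinc enzymes that interconvert carbon dioxide and water with bicarbonate and a proton, and so set the rate at which cells buffer and move acid. Car2, Car3, Car7 and Car13 are cytosolic enzymes, with Car2 fast and Car3 slow. Car4 is tethered to the outer face of the membrane by a lipid anchor, while Car9, Car12 and Car14 are transmembrane proteins whose active site faces outward. Car8 has lost the catalytic activity and is known as a partner of the inositol trisphosphate receptor. In the nervous system Car2 is known from oligodendrocytes and choroid plexus, Car7 from neurons and Car8 from Purkinje cells.

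The start sites of 3 of the membrane-bound enzymes are shown first, because Car9 is a textbook target of hypoxia-inducible factors, whose binding element often has the letters ACGTG or, on the other strand, CACGT at its core. Windows of 300 bases, 250 before and 50 after the start, came from RefSeq on build GRCm38.p6, and were found for 5 of the 9 genes: Car4, Car7, Car9, Car12 and Car14. The capitals mark the letters CACGT or ACGTG, searched so that both strands are covered and overlapping matches are merged. Car4 is read from the plus strand at chr11:84957504-84957803, Car9 from the plus strand at chr4:43506776-43507075 and Car14 from the minus strand at chr3:95904636-95904935.
Car4: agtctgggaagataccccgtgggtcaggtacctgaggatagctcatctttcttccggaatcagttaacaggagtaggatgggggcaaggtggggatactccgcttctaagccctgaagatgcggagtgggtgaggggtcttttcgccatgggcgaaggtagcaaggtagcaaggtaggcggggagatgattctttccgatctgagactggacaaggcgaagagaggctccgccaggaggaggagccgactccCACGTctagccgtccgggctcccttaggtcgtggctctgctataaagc
Car9: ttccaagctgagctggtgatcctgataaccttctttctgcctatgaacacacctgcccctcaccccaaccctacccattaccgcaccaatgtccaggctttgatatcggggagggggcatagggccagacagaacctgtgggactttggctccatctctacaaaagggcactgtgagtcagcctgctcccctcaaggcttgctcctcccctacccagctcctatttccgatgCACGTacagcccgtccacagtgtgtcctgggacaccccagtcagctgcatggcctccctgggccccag
Car14: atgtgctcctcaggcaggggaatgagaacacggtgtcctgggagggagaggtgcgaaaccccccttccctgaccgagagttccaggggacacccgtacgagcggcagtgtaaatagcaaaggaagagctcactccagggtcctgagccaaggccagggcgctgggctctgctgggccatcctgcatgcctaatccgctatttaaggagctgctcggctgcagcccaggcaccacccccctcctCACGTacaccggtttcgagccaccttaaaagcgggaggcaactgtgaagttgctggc

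The match began 18 bases before the start in Car9 (position -18), at -7 in Car14 and at 3 in Car4. The 3 Car7 windows and the Car12 window held 0 matches. Of 32851 windows of the same length in the table, 19.6% held either motif, and 7.79% held one within their last 100 bases. A match describes these letters and is neither a site nor a cause. The windows also differed in the ratio of observed to expected CG dinucleotides, which was 0.850, 0.686 and 0.853 in the 3 Car7 windows, 0.640 in Car4, 0.466 in Car14, 0.356 in Car12 and 0.207 in Car9, against a median of 0.384 over all windows.

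A level here is the log2 processed signal of a probe minus the percentile 75 of its array, so that 0 lies at the signal that 75% of non-control spots do not exceed. Levels of different probes cannot be set against each other, since each probe has its own brightness. Between 23983 and 26840 of 43379 non-control spots on an array were well above background and 0 were saturated. The lowest level well above background on an array lay between -5.19 and -5.00. Among 245 probes repeated on each array, the median SD of log2 values was 0.237 to 0.262 at signals under 30, 0.0682 to 0.0786 from 30 to 300 and 0.0446 to 0.0602 above 300, so dim probes carry the larger error. The scaling does not centre the comparison with Mixture: over the 18876 probes well above background on every array the median log2 ratio of NPC lines over Mixture was 0.75, and values near it are typical ones.

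Set against the tissue pool, most of the carbonic anhydrase probes had a lower mean in the NPC lines, and those of Car4, Car14 and Car12 passed the test. Of the 12 probes, 11 had a signal well above background somewhere and were tested with limma, and 3 of these 11 were lower in the NPC lines at an adjusted p under 0.05, those of Car4 and Car14 and 1 of 2 Car12 probes. Over all 29700 probes tested, 7.88% were called lower. None of the 11 was called higher, against 0.943% of all probes tested. With unadjusted limma p-values under 0.05 the family counted 4 lower and 0 higher. Of the 29700 probes tested, 4097 were lower and 5021 higher by that measure. The mean over lines lay below Mixture for 11 of 11 probes (37.5% of all probes tested), though Car13 turned higher with normexp background correction and with quantile normalization, and every line lay below it for 9 of 11 (26.0%). The median log2 ratio of the 11 was -3.53, against 0.54 over all probes tested. With each dim value set to the detection limit of its array, these medians were -2.79 and 0.39. Car4 and the called Car12 probe entered the test only because they were well above background in Mixture, so that they had to differ, and their calls support nothing about the family. Probes of that kind made up 9.61% of those tested, and 72.4% of them were called lower, against 1.23% of probes above background in Mixture and in a line. With any one of NS21, NS195R or NSEB5-2C left out, 0 of the 11 probes were called by limma. The adjusted p was then 0.0559 to 0.104 for Car4, 0.0736 to 0.200 for Car14 and 0.0768 to 0.122 for the called Car12 probe, and the unadjusted limma p was under 0.05 for 3, 8 and 4 of the 11 without NS21, NS195R and NSEB5-2C. In bulk RNA, fewer cells that express a gene and less RNA of it per cell cannot be told apart.

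**Figure D1:**
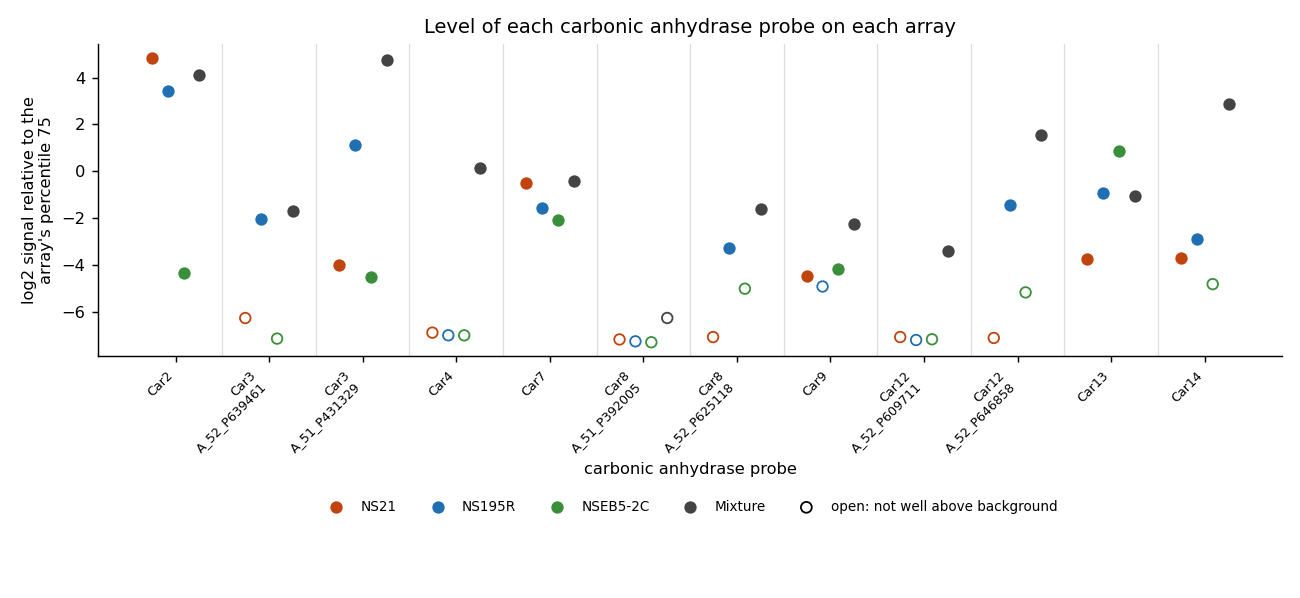
Level of each carbonic anhydrase probe on the 4 arrays, as log2 signal relative to the percentile 75 of the array. Each point is 1 array, and open points were not well above background. Car2 stands at 4.83 in NS21 and 3.43 in NS195R but at -4.34 in NSEB5-2C, while Mixture lies at 4.10.

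Car2, the fast cytosolic enzyme, split the NPC lines. Its probe A_51_P455647 (chr3:14921801-14921860, in a build not given in the sources used here, as for all probe positions below) had a level of -4.34 in NSEB5-2C, 4.83 in NS21 and 3.43 in NS195R, against 4.10 in Mixture. The deposited signal was 11.5 in NSEB5-2C, 6795 in NS21 and 2709 in NS195R, against 4429 in Mixture. NS21 and NS195R were bright, on either side of Mixture, while NSEB5-2C was still well above background but near its lower end. NSEB5-2C was 353-fold lower than the mean of the other lines (log2 difference -8.47). By pairs, NS21 was 575-fold above NSEB5-2C, NS195R was 217-fold above NSEB5-2C, and NS21 was 2.65-fold above NS195R. Set against Mixture, NSEB5-2C was 346-fold lower and NS195R 1.59-fold lower, while NS21 was 1.66-fold higher. The mean over lines was 1.31 ± 4.94 (SD, n = 3), and its log2 ratio to Mixture of -2.79 (SE 4.38) was smaller than the spread between lines (limma adjusted p = 0.711). Without NSEB5-2C the log2 ratio of Car2 was 0.031. The range of Car2 over the lines was 9.17 log2 units, and 9 of 20137 probes measured in all 3 lines, or 0.0447%, had a wider one. The median range over these probes was 0.83. Car2 was picked for this difference, so its rank among them follows from the choice. Probes dim in any line are not counted here. With dim values raised to the detection limit, the markers Fabp7 and Olig1 ranged over 12.4 and 10.9 log2 units. NS21 and NSEB5-2C, which stood farthest apart, share the strain label 129/Ola, and the part of strain was not tested.

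Car3, the slow cytosolic enzyme known from muscle, liver and fat, had another order. Its brighter probe A_51_P431329 (chr3:14893376-14893435) had levels of -4.53 in NSEB5-2C, -4.002 in NS21 and 1.11 in NS195R, against 4.76 in Mixture. Only NS195R was bright among the lines, 41.6-fold above the mean of the others, and it was still 12.5-fold below Mixture. NS21 was 433-fold and NSEB5-2C 626-fold below Mixture. The log2 ratio of the mean over lines was -7.23 (SE 2.78), which did not pass the threshold (limma adjusted p = 0.194, lower in 3 of 3 lines). The dimmer Car3 probe A_52_P639461 (chr3:14886326-14886385) stood at -2.03 in NS195R and at -1.71 in Mixture, and it was not well above background in NS21 and NSEB5-2C. By that probe NS195R exceeded the other lines at least 8.52-fold and lay 1.25-fold below Mixture. Both Car3 probes thus had NS195R as the highest line, but they differed in how far it lay below Mixture.

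Car13, a cytosolic enzyme, ran the opposite way to Car2 over the lines. Its probe A_51_P153765 (chr3:14664364-14664423) had levels of 0.87 in NSEB5-2C, -3.75 in NS21 and -0.95 in NS195R, against -1.04 in Mixture. NSEB5-2C was 9.30-fold above and NS21 13.1-fold below the mean of the other lines. Against Mixture, NS21 was 6.52-fold lower, NS195R 1.07-fold higher and NSEB5-2C 3.77-fold higher. Thus NSEB5-2C, the line lowest in Car2, was the highest in Car13. The mean over lines of -1.27 ± 2.33 (SD, n = 3) had a log2 ratio to Mixture of -0.23 (SE 2.08), within the spread between lines (limma adjusted p = 0.949). That ratio turned to 1.005 without NS21, 0.075 with normexp and 0.012 with quantile normalization.

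Car7, the cytosolic enzyme known from neurons, varied least among the cytosolic members. Its probe A_51_P159711 (chr8:103148300-103148359) had levels of -2.08 in NSEB5-2C, -0.52 in NS21 and -1.57 in NS195R, against -0.40 in Mixture. NS21 was 2.46-fold above the mean of the other lines and close to Mixture. Of the 20137 probes measured in all lines, 21.5% had a wider range than its 1.56 log2 units. The NPC mean was 1.98-fold below Mixture (log2 ratio -0.99, SE 0.78), and this did not pass the test (limma adjusted p = 0.460, lower in 3 of 3 lines).

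Car8, the acatalytic member, was measured by 1 of its probes. Probe A_52_P625118 (chr4:8072704-8072763) stood at -3.28 in NS195R and -1.60 in Mixture, while NS21 and NSEB5-2C had no signal well above background. NS195R exceeded the other lines at least 3.39-fold and lay 3.18-fold below Mixture. Its log2 ratio over all lines was -3.53 (SE 1.72, limma adjusted p = 0.268), or -2.85 with dim values raised. The other probe, A_51_P392005 (chr4:8070545-8070604), did not rise well above background on any of the 4 arrays and was not tested.

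**Figure D2:**
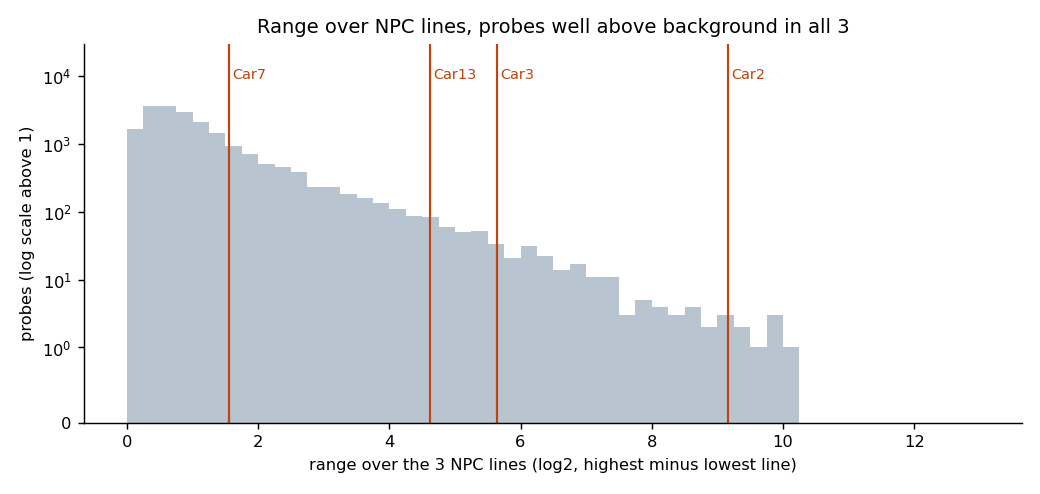
Range of log2 levels over the 3 NPC lines for the 20137 probes well above background in all of them, as a histogram with a log count axis, with the 4 carbonic anhydrase probes that qualify marked. Car2 lies at 9.17, Car3 at 5.65, Car13 at 4.62 and Car7 at 1.56, where the median probe lies at 0.83.

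Among the membrane-bound enzymes, Car4 lay below Mixture in the NPC lines. Car4, known from lung and kidney and from capillaries of the brain, was measured by probe A_51_P407028 (chr11:85034716-85034775). It was not well above background in any line, with signals of 1.79 in NSEB5-2C, 1.99 in NS21 and 1.95 in NS195R, against 281 in Mixture. The lines averaged a level of -6.98 ± 0.07 (SD, n = 3), against 0.12 in Mixture. It was at least 38.4-fold lower in the lines than in Mixture (limma adjusted p = 0.00906, lower in 3 of 3 lines). That p-value rests on a spread of signals at background, and the probe entered the test through Mixture alone, so it had to differ.

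Car14, a transmembrane enzyme known from kidney, liver and brain, also fell. Its probe A_51_P175424 (chr3:95771886-95771945) had signals of 8.16 in NSEB5-2C, 18.1 in NS21 and 33.8 in NS195R, against 1890 in Mixture. It was dim but well above background in NS21 and NS195R and not in NSEB5-2C, and no line came near Mixture. The mean level was -3.82 ± 0.97 (SD, n = 3) in the lines, against 2.87 in Mixture, a 103-fold difference (log2 ratio -6.69, SE 0.92, limma adjusted p = 0.0431, lower in 3 of 3 lines). With every probe tested the adjusted limma p was 0.0553. NS21 was 96.2-fold and NS195R 54.5-fold below Mixture, and NSEB5-2C was at least 208-fold below.

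The 2 probes of Car12, a transmembrane enzyme of secretory epithelia, gave different pictures of the lines. The brighter probe A_52_P646858 (chr9:66797695-66797754) had signals of 6.39 in NSEB5-2C, 1.70 in NS21 and 93.3 in NS195R, against 761 in Mixture. Among the lines it was well above background in NS195R alone, where it exceeded the other lines at least 12.9-fold and lay 7.95-fold below Mixture. NS21 was at least 97.7-fold and NSEB5-2C at least 107-fold below Mixture. The log2 ratio of -6.14, or -5.45 with dim values raised, had an SE of 2.58 and did not pass (limma adjusted p = 0.220, lower in 3 of 3 lines). The dimmer probe A_52_P609711 was not well above background in any line, with signals of 1.59 in NSEB5-2C, 1.75 in NS21 and 1.69 in NS195R, against 24.3 in Mixture. The lines had at least 3.32-fold less of it than Mixture (limma adjusted p = 0.0197, with 3 of 3 lines lower). With normexp its log2 ratio was -0.42 (limma adjusted p = 0.168). As with Car4, its spread over the lines is that of signals at background. Its listed position (chr9:66785269-66794723) spans 9455 bases, against 60 for the other probe.

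Car9, the hypoxia-induced transmembrane enzyme, was dim everywhere. Its probe A_52_P610923 (chr4:43526965-43527024) had signals of 12.9 in NSEB5-2C, 10.6 in NS21 and 8.27 in NS195R, against 54.2 in Mixture. The lines lay close together at the lower limit of detection, with NS195R not well above background, and all of them lay below Mixture. The mean level was -4.53 ± 0.38 (SD, n = 3) in the lines, against -2.25 in Mixture, a 4.85-fold difference (log2 ratio -2.28, SE 0.48). It did not pass after adjustment (limma adjusted p = 0.0906, unadjusted p = 0.0133, lower in 3 of 3 lines).

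**Figure D3:**
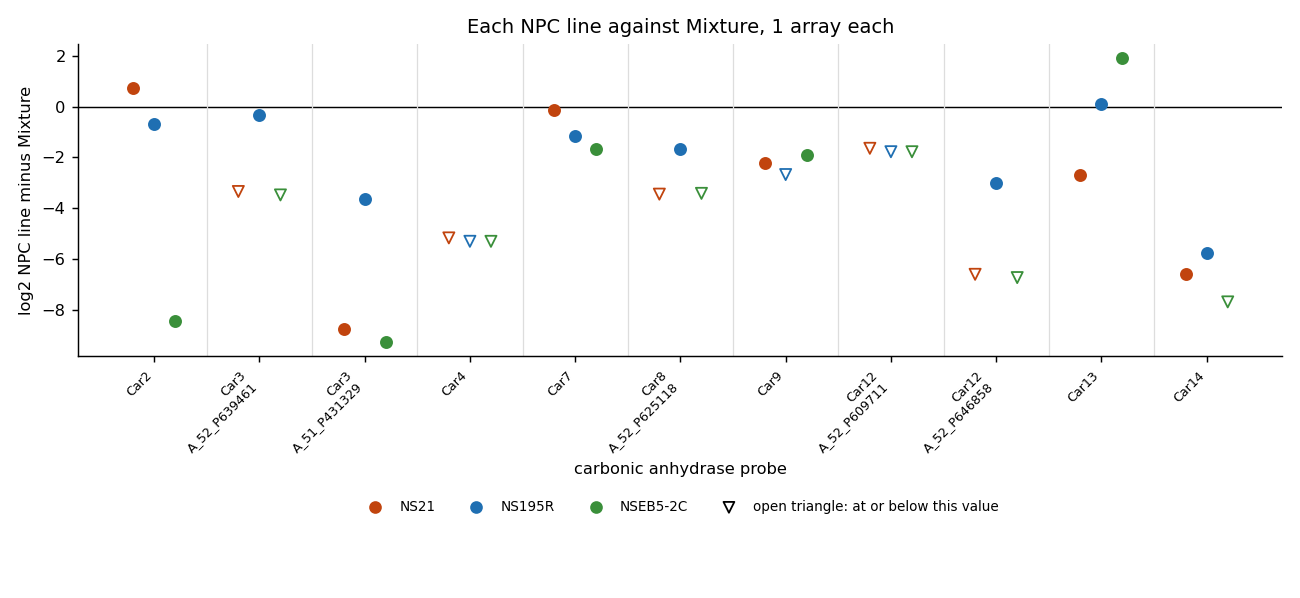
Log2 difference of each NPC line from Mixture for the 11 tested carbonic anhydrase probes, 1 array on each side. Points below 0 are lower in the line. Car2 in NS21 at 0.73, and Car13 in NSEB5-2C at 1.91, lie above 0, while Car2 in NSEB5-2C lies at -8.43.

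Counted by line, 5 of the 11 probes in NSEB5-2C, 6 in NS21 and 8 in NS195R were well above background, against 11 in Mixture. Over all probes tested these shares were 76.0% in NSEB5-2C, 77.9% in NS21 and 81.4% in NS195R, against 84.4% in Mixture. In NS195R 4 of 11 probes exceeded each of the other lines by 2-fold or more (12.1% of all probes tested), those of Car8 and Car12 and both of Car3, and 0 lay as far below (7.05%). In NS21 the 2 such probes were those of Car2 and Car7 (8.1%), and 3 lay as far below (5.72%), of which Car13 alone was left with dim values raised to the detection limit. In NSEB5-2C Car13 lay as far above (6.62%), and Car2 and Car14 as far below (9.29%). Of the 11 probes, 10 in NSEB5-2C (27.5%), 9 in NS21 (26.0%) and 8 in NS195R (24.5%) lay 2-fold or more below Mixture. The only probe at least 2-fold above Mixture was that of Car13 in NSEB5-2C (34.9%), with 0 in NS21 (37.3%) and 0 in NS195R (36.8%).

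Many markers of neural cell types, though not all, were also highest in NS195R. There 6 of 10 oligodendrocyte lineage markers, among them the transcription factor Olig1, exceeded each of the other lines by 2-fold or more. Over all probes tested, 12.1% did so in NS195R and 7.05% lay as far below. Olig1 stood at a level of 5.73 in NS195R, and it was not well above background in NS21 or NSEB5-2C. Summed over the 10, the log2 level was 1.61 in NSEB5-2C, 1.93 in NS21 and 6.32 in NS195R, against 3.26 in Mixture. Such sums follow their brightest probes, and Olig1 made up 66.6% of the one in NS195R. The myelin marker Mbp ran the other way, at 0.36 in NSEB5-2C and 0.88 in NS21 and at least 56.1-fold lower in NS195R than in the mean of these lines, and Mog was not well above background there. All 4 measured astrocyte markers exceeded the other lines likewise in NS195R, with log2 summed levels of 2.02 in NSEB5-2C, 1.87 in NS21 and 5.82 in NS195R, against 1.76 in Mixture, and Gfap lacked a signal well above background throughout. Among 5 neural progenitor markers, 4 did so as well, with log2 summed levels of 7.14 in NSEB5-2C, 7.07 in NS21 and 8.15 in NS195R, against 5.29 in Mixture, and the Vim probe made up 90.3% of the sum in NSEB5-2C and 87.9% in NS21. Of 6 neuron markers, 3 were 2-fold or more above each of the other lines in NS195R and 2 as far below. In NS21 another 3 were as far above and 0 as far below. The log2 summed levels were 0.11 in NSEB5-2C, 2.05 in NS21 and 3.45 in NS195R, against 1.75 in Mixture. Sox2, a progenitor marker, lacked a signal well above background in NS21, the line brightest in Car2. Its levels were 0.87 in NSEB5-2C and 2.68 in NS195R, against -3.58 in Mixture. Of 4 tested pluripotent cell markers, Esrrb at 0.98 and Pou5f1 at -1.46 were, among the lines, well above background in NS21 alone. Zfp42 was so in NSEB5-2C alone, at -3.82, and the remaining marker in every line. Car2, known from oligodendrocytes, was 2.65-fold higher in NS21 than in NS195R. The part of cell makeup in these line differences was not tested.

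Markers of tissues named in the pool, and of fat and choroid plexus, were also lower in the NPC lines. Spleen and thymus had no list. Called lower with limma were 5 of 5 erythroid markers, 4 of 4 liver, 4 of 4 lung, 4 of 5 kidney, 5 of 7 heart and muscle, 3 of 4 adipose and 2 of 5 choroid plexus markers. Over all probes tested 7.88% were called lower. In any list 0 markers were called higher (0.943% of all probes tested). The called liver, kidney and choroid plexus markers were all above background in Mixture alone, as were 2 each of the called erythroid, lung, heart and muscle, and adipose markers. Such probes had to differ, so their calls support nothing about the lists. Over these and the gene lists below, limma called 32 genes lower, 21 of them through probes above background in Mixture alone. It called 0 with any one of NS21, NS195R or NSEB5-2C left out (by unadjusted p under 0.05, 42, 54 and 42 were lower). The log2 summed level of the erythroid markers was -2.85 in NSEB5-2C, -3.17 in NS21 and -3.00 in NS195R, against 9.11 in Mixture. For the kidney markers it was -2.87 in NSEB5-2C, -2.32 in NS21 and -3.39 in NS195R, against 7.02 in Mixture. Of the neural progenitor, astrocyte, oligodendrocyte lineage, neuron, pluripotent cell and mesenchyme markers limma called 0, with 1 unadjusted p under 0.05 among the neural progenitor and 1 among the mesenchyme markers. For the liver markers, 0 of 4 were well above background in any line. Their part in the lower levels of Car3, Car4, Car12 and Car14 was not tested.

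Car13, Car3 and Car2 lie near each other on chromosome 3, where the gene table has the protein-coding order Car13, Car1, Car3 and Car2. The line with the highest level was NSEB5-2C for Car13, NS195R for Car3 and NS21 for Car2. Car1, the cytosolic enzyme of red cells, had levels of -5.38 in NSEB5-2C, -4.02 in NS21 and -4.29 in NS195R, against 0.45 in Mixture, and its NSEB5-2C value was not well above background. Of the other annotated genes among the 5 on each side of Car2, the array named A930001A20Rik alone. It was well above background in NS21 at -4.68 and not on the other arrays. Outside the cluster, Rbis, next to Car13, stood at 4.87 in NSEB5-2C, 4.79 in NS21 and 4.40 in NS195R, against 2.72 in Mixture. Ythdf3, on the other side of Car2, stood at 0.36 in NSEB5-2C, 0.21 in NS21 and -0.50 in NS195R, against -1.31 in Mixture. The brightest probe of E2f5 stood at 1.87 in NSEB5-2C, 2.60 in NS21 and 1.65 in NS195R, against -0.21 in Mixture. Lrrcc1 had 3 probes, of which A_52_P174840 and A_52_P518764 were well above background on every array. A_52_P174840 stood at -4.46 in NSEB5-2C, -3.23 in NS21 and -4.11 in NS195R, against -4.50 in Mixture. A_52_P518764 stood at -4.09 in NSEB5-2C, -2.89 in NS21 and -3.06 in NS195R, against -4.07 in Mixture. The probe A_52_P341468 stood at -2.87 in NS21 and -4.15 in NS195R and was not well above background in NSEB5-2C or Mixture. Both probes of Sirpb1a were well above background in Mixture alone.

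**Figure D4:**
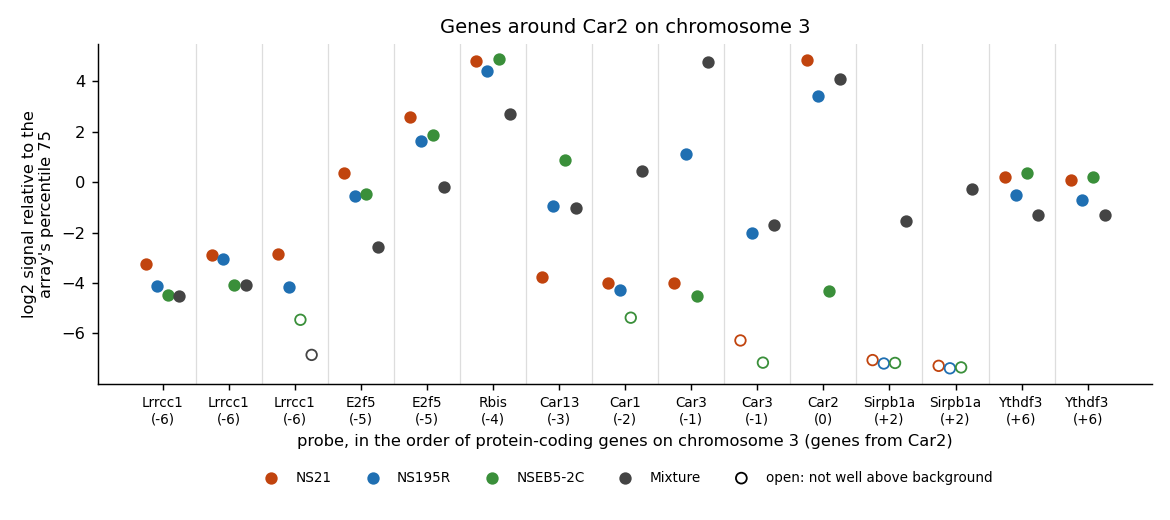
Levels on the 4 arrays of probes for Car2 and its protein-coding neighbours on chromosome 3 that the array names, in gene order, as log2 signal relative to the percentile 75 of the array. Car13, Car3 and Car2 each have another highest line, while Rbis lies between 4.40 and 4.87 in all 3 lines.

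The genes whose pattern over the 4 arrays was most like that of Car2 were H19, Bmp7, Fbxo22, Wipf3 and D430019H16Rik. Likeness was the Euclidean distance between centred log2 levels, with dim values raised to the detection limit, and it was 2.09 for H19, 2.28 for Bmp7, 2.51 for Fbxo22, and 2.55 for both Wipf3 and D430019H16Rik. H19, an imprinted noncoding RNA, had levels of -7.24 in NSEB5-2C, 3.89 in NS21 and 1.12 in NS195R, against 4.75 in Mixture. Bmp7, a secreted growth factor, had levels of -7.05 in NSEB5-2C, 1.49 in NS21 and -0.36 in NS195R, against 1.96 in Mixture. All 5 were not well above background in NSEB5-2C, where Car2 was.

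The array held 7 other carbonic anhydrase genes, and 6 were tested. Car1 and the membrane-anchored enzyme Car15 were called lower in the NPC lines, where 7.88% of all probes tested were. Of the 6, 0 were called higher (0.943% of all probes tested), with 2 unadjusted limma p-values under 0.05 in all. Car1 was 32.3-fold below Mixture (log2 ratio -5.01, SE 0.72, limma adjusted p = 0.0469, lower in 3 of 3 lines). Car15 stood at -4.17 in NSEB5-2C, -4.62 in NS21 and -4.60 in NS195R, against -0.31 in Mixture (log2 ratio -4.15, SE 0.41, limma adjusted p = 0.0224). The median log2 ratio of the 6 was -3.61 (-2.54 with dim values raised). Car5b, a mitochondrial enzyme, had its highest line in NSEB5-2C, with levels of 0.33 in NSEB5-2C, -2.52 in NS21 and -3.39 in NS195R, against -0.97 in Mixture. So NSEB5-2C, with little Car2 signal, led the other lines in the probes of Car13 and Car5b. Car11, an acatalytic relative, was the only one of the 6 with a mean above Mixture (log2 ratio 0.85, SE 1.03, limma adjusted p = 0.628), and that ratio is close to the median of 0.75 given above. Car5a and Car6 were each well above background in 1 line, and with dim values raised to the detection limit their log2 ratios were -2.77 and -2.32 (-4.13 and -3.09 as measured, limma adjusted p = 0.261 and 0.166), and Car10 had no signal well above background on the 4 arrays.

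The list of 28 acid-base transporter genes held carriers of bicarbonate, protons or lactate, together with Aqp1, Bsg and Slc9a3r1, which are not such carriers. Of the 28, 26 were tested, 4 were called lower (7.88% of all probes tested) and 0 higher (0.943%). There were 9 unadjusted limma p-values under 0.05. The median log2 ratio was -1.57 (-1.02 with dim values raised to the detection limit). Slc4a1, the anion exchanger of red cells, was at least 683-fold lower (limma adjusted p = 0.0174). Slc26a4, an anion exchanger of kidney and inner ear, was at least 120-fold lower (limma adjusted p = 0.0116). The sodium-proton exchanger Slc9a3 was at least 14.8-fold lower and the proton pump subunit Atp6v0d2 at least 2.09-fold lower. All 4 calls were of probes that entered the test through Mixture alone, none of them being well above background in any line, so they had to differ and support nothing about the list. The lactate exporter Slc16a3 split the lines, at 3.102 in NSEB5-2C, 4.20 in NS21 and -1.42 in NS195R, against 2.03 in Mixture. The sodium-bicarbonate cotransporter Slc4a4 was measured in NS195R alone among the lines, at -2.29, which was at least 7.12-fold above the others and lay beside -1.80 in Mixture. The sodium-proton exchanger Slc9a2 was at least 43.3-fold higher in NSEB5-2C than in the other lines, and Slc9a7 was at least 24.6-fold higher in NS195R, with its dim NS21 value raised to the detection limit.

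The hypoxia list held 22 other genes, among them Hif1a, Epas1 and Vhl, which are regulators of the hypoxia response. All 22 were well above background on every array. Limma called 0 of them in either direction, with 5 unadjusted p-values under 0.05. Their median log2 ratio was -0.07, below the median of 0.54 over all probes tested. The single Car9 probe, at -2.28, was near the lower limit of detection in the lines. Of the 4 genes on the list with the largest line differences, 3 were lowest in NS195R. The collagen hydroxylase gene P4ha2 stood at 3.01 in NSEB5-2C, 2.00 in NS21 and -2.56 in NS195R, against 1.48 in Mixture. The glucose transporter Slc2a1 stood at 4.35 in NSEB5-2C, 5.19 in NS21 and 2.09 in NS195R, against 2.39 in Mixture. The oxygen sensor Egln3 was 12.4-fold lower in NS195R than in the other lines. The peptide hormone gene Adm ran otherwise, 13.0-fold lower in NS21 than in the other lines. Car9, at signals of 12.9 in NSEB5-2C, 10.6 in NS21 and 8.27 in NS195R, gave no order of the lines, since the NS195R signal was not well above background.

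**Figure D5:**
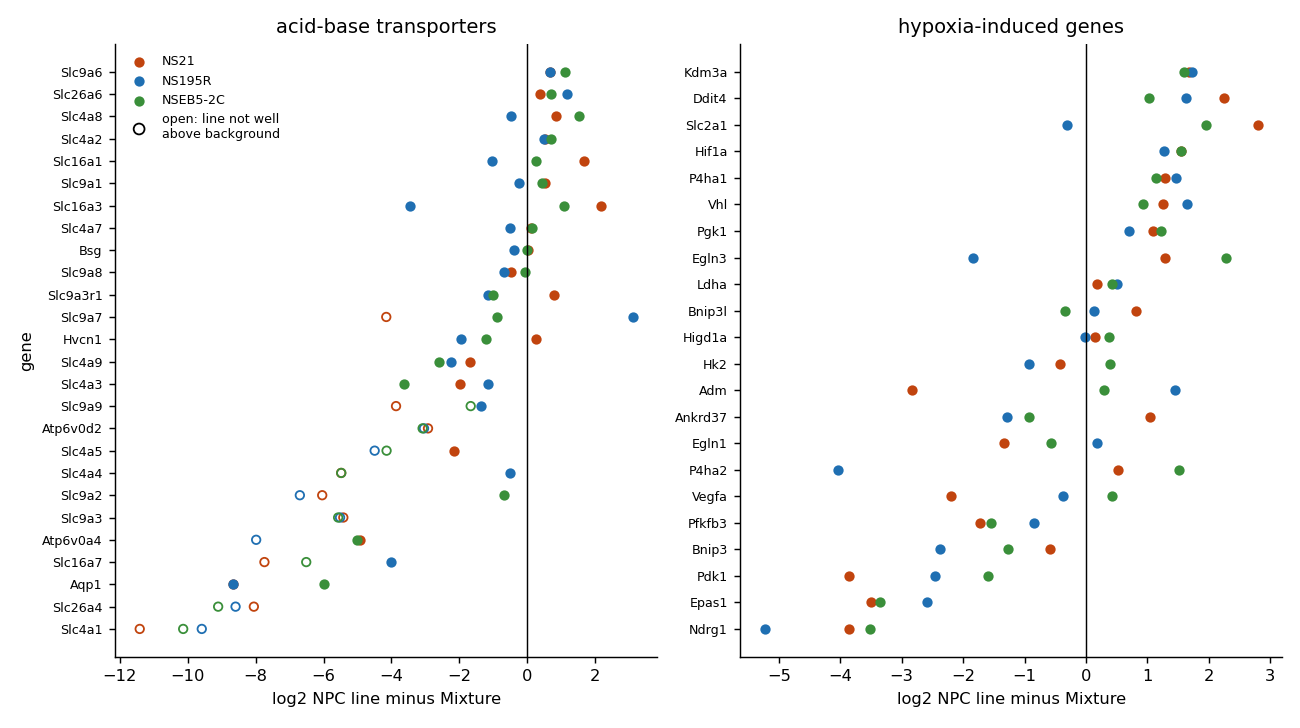
Log2 difference of each NPC line from Mixture for the genes of the fixed lists of acid-base transporters and hypoxia-induced genes, 1 array on each side. Open points were not well above background in the line. Slc4a1 lies farthest below 0 among the transporters called lower, while the genes of the hypoxia list lie on both sides of 0 around a median of -0.07.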

How the data were processed

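The deposited spot intensity values had been background-subtracted and flagged for quality by the authors with Feature Extraction 9.5.3.1 of Agilent, as recorded per the file headers. Cy3-labelled RNA was made from 0.25 ug, per the labels' protocols. A deposited value table matched this processed intensity at each of 45018 features, to a relative tolerance of 1e-06, with medians of 15.0 in NS21, 18.2 in NS195R, 12.2 in NSEB5-2C and 27.4 in Mixture, and was not used further. With 1 slide and 1 scan day for all 4 arrays, no batch could be tested.

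From these values, log2 of the processed signal minus the percentile 75 of its array over non-control spots was computed, after outlier spots were dropped, and spots of a probe were averaged. A probe counted as well above background if 0.5 or more of its spots had that flag. Probes that met this on 1 array or more entered limma 3.58.1 in R 4.3.3 (two-sided, moderated over all probes, Benjamini-Hochberg over 29700 probes, threshold 0.05), with 2 residual and 1.41 prior degrees of freedom. Mixture, with 1 array, was taken to have the same variance as the NPC lines. Where a side was not well above background, "at least" folds set the dim probe, on each array, to its own value or to the lowest signal that was well above background, whichever was higher. A line was set against the mean log2 level of the other lines. The percentages beside counts are shares of all probes tested. The fit was tested on simulated data. The number of arrays limits the precision.

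Gene symbols were updated from RefSeq identifiers in the gene table of GRCm38.p6. Lists took 1 probe per gene, the one with the highest mean. All member probes are described. Other genes named are all other carbonic anhydrases, the 5 annotated genes on each side of Car2, and 5 coding genes beyond the cluster (Rbis, E2f5, Lrrcc1, Ythdf3 and Sirpb1a) chosen after their values were seen, the 5 nearest patterns, up to 3 genes of a marker list, and, of the transporter and hypoxia lists, up to 4 called genes and up to 4 with the largest line difference. The members and lists were chosen with earlier results of these data known. Alternatives covered background correction (normexp, offset 50), scaling, filters, 1 probe per gene, an intensity trend and leaving out each line.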

Additional observations from a re-analysis of the deposited data

Results flagged for a closer look

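Car13 differed in direction between lines against the same Mixture array. Its level was 0.87 in NSEB5-2C and -3.75 in NS21, against -1.04 in Mixture, so the log2 difference from Mixture was 1.91 in NSEB5-2C and -2.70 in NS21. The lines were 4.62 log2 units apart. Each side is 1 array, and the difference was not tested.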

How the results depend on the processing

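With each line left out in turn, limma called 0 to 0 carbonic anhydrase probes lower where the full set gave 3, and over all probes 0 to 0 in either direction where it gave 2340 lower and 280 higher. The fixed lists likewise had 0 to 0 lower, where the full set gave 32. Unadjusted p-values under 0.05 then numbered 3, 8 and 4 for the family (without NS21, NS195R and NSEB5-2C), all lower, and over all probes 2449 to 4002 higher and 3828 to 4642 lower. The adjusted p was 0.0559 to 0.104 for Car4, 0.0736 to 0.200 for Car14 and 0.0768 to 0.122 for the dimmer Car12 probe. Testing only probes well above background on all arrays also gave 0 calls for the family, the lists and all probes in either direction, with 4 family probes left and 1 unadjusted p under 0.05 (933 lower and 4785 higher over all probes). Car14 missed with every probe tested (adjusted p = 0.0553) and the dimmer Car12 probe with normexp (log2 ratio -0.42, adjusted p = 0.168), whose offset compresses dim values.

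The log2 ratio of Car2 ran between -4.55 and 0.031 with a line left out, and was above 0 without NSEB5-2C. That of Car13 ran between -1.30 and 1.005, and was above 0 without NS21, with normexp (0.075) and with quantile normalization (0.012). Calls higher over all probes were 1324 with normexp, 1065 with quantile normalization, 111 with median scaling, 752 with every probe tested, 184 with 1 probe per gene and 597 with an intensity trend, and the lists had 4 with normexp and 1 with every probe. Median scaling moved every log2 ratio by -0.53.

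Counts at least 2-fold from both other lines with normexp were 769 higher and 464 lower for NS21 (2407 and 1700 before), 1282 and 829 for NS195R (3608 and 2095), and 743 and 493 for NSEB5-2C (1966 and 2759). With dim values raised, 1105 were lower in NS21 and 1788 in NSEB5-2C. For the family these were 1 higher in NS21 with normexp or median scaling (2 before), 1 lower in NS21 with normexp or raised values (3), 2 higher in NS195R (4) with normexp, and 1 lower in NSEB5-2C with normexp or quantile normalization (2).

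Of the other values for single probes, 178 kept direction and side of the threshold or moved within the spread, and 40 moved by more. The cause of these shifts was not tested. No paired analysis was possible because each NPC line is a line of its own and Mixture has 1 array. Signals near background limit Car4, Car8, Car9 and Car12.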
